A study of Mus musculus with 6 samples.

Results

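The 30 genes described here code for the enzymes that build cholesterol, the SREBP2 system that controls them, and proteins that take up, move, export or esterify sterols. They were chosen by symbol from the 19613 rows of a deposited mouse liver RNA sequencing table, and all 30 had a row. Knockout mice (KO, labelled -/-) were compared with wild-type mice (WT). All mice were given lipopolysaccharide (LPS), a bacterial endotoxin that provokes systemic inflammation, injected intraperitoneally at a dose of 15 mg/kg, and were sampled after 6 h. Each genotype had 3 libraries, and all came from LPS-treated mice, so each difference is between genotypes under endotoxin and the response to LPS itself was not measured. Nothing in the sources used here gives strain, sex or age, or whether replicate libraries represent different mice. P-values therefore measure only the spread between these libraries. In whole liver RNA, fewer cells of a type and less RNA per cell cannot be told apart.

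Cholesterol is built in the cytosol and the endoplasmic reticulum from acetyl-CoA, by way of HMG-CoA, mevalonate, isoprenoid diphosphates, squalene and lanosterol. The transcription factor SREBP2, the product of Srebf2, switches these genes on together when membranes run short of sterol. Scap escorts SREBP2 to the Golgi for activation, the Insig proteins hold it back when sterol is plentiful, and the liver is a main site of this synthesis. SREBP2 sites in promoters commonly lie near CCAAT boxes, which bind the factor NF-Y.

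Promoter sequence is shown for 4 of these genes, as examples of the elements named above. RefSeq promoter windows (GRCm38.p6, from 250 bases before to 50 bases after the start) were matched by symbol for 23 of the 30 genes, 29 windows in all. Stretches before the start are printed for Hmgcs1, which holds the string TCACNCCAC, searched as the sterol regulatory element. They are also printed for Mvd, Lss and Nsdhl, which belong to the 8 genes of lowest p described further on. Of those 8, Cyp51, Tm7sf2 and Msmo1 also had a window, but it is not shown because the stretch overlaps annotated exons. Capitals mark the sterol regulatory element TCACNCCAC and the CCAAT box on either strand, so that a box on the other strand reads ATTGG. The printed stretch of Hmgcs1 lies at chr13:119690181-119690350 (plus strand), that of Mvd at chr8:122443423-122443592 (minus strand), that of Lss at chr10:76531435-76531604 (plus strand) and that of Nsdhl at chrX:72918421-72918520 (plus strand).
Hmgcs1: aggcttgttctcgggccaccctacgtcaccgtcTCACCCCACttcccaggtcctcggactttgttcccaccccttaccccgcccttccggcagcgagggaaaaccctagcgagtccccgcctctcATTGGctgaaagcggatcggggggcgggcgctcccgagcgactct
Mvd: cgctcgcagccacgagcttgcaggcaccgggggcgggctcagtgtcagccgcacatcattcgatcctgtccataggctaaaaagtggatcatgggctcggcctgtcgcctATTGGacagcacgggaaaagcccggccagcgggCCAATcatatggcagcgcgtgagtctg
Lss: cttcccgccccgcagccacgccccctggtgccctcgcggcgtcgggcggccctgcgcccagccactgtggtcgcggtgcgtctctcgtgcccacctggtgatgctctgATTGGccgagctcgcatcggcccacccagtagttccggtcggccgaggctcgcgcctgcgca
Nsdhl: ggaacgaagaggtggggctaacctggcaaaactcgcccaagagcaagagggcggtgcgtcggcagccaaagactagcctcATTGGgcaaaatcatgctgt
The match of Hmgcs1 to TCACNCCAC began 137 bases before the start. A CCAAT box stood in 20 of the 29 windows (69.0%), against 37.4% of the 32851 windows in the whole table. By gene, 20 of 23 (87.0%) held one, against 41.1% of the 27025 genes in that table. Of the 6 genes of lowest p that had a window, 6 held a CCAAT box, 0 the element TCACNCCAC and 0 the E-box CACGTG. The element TCACNCCAC was in 1 of the 29 windows (3.45%), against 1.24% of all windows. The E-box, searched likewise on both strands, was in 7 of 29 (24.1%), against 7.15% of all. No motif overlapped another in the bases shown, and a match is a string of letters, not a measured binding site. Sites that differ from the string searched would be missed, so a window without a match may still hold a site.

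No gene of the set passed the test between genotypes. The log2 fold changes were highest for Mvd (0.83), Sqle (0.74) and Cyp51 (0.65). Values are given as scaled FPKM (fragments per kilobase of transcript, normalized to library size, then divided by a median-of-ratios factor per library), and log2 fold changes are KO minus WT of scaled FPKM + 1. With at least 1 FPKM in at least 3 libraries, 28 of the 30 genes were tested. None had a limma adjusted p under 0.05 (lowest 0.111), where 1.13% of the 9218 tested genes passed, 48 higher and 56 lower in KO. At an unadjusted p under 0.05, 8 of the 28 were higher in KO, against 7.18% of all tested genes, and 0 were lower, against 6.65%. The 3 KO libraries lay above the 3 WT libraries for 11 of the 28, against 10.7% of all tested genes. The 3 KO libraries lay below WT for 0 of the 28, against 9.06%. Over the 28 genes the median log2 fold change was 0.21, with 19 positive and 9 negative, where the median over all tested genes was 0.01 and 51.1% were positive. These counts describe the set, whose members share regulators and are not replicates of each other.

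**Figure D1:**
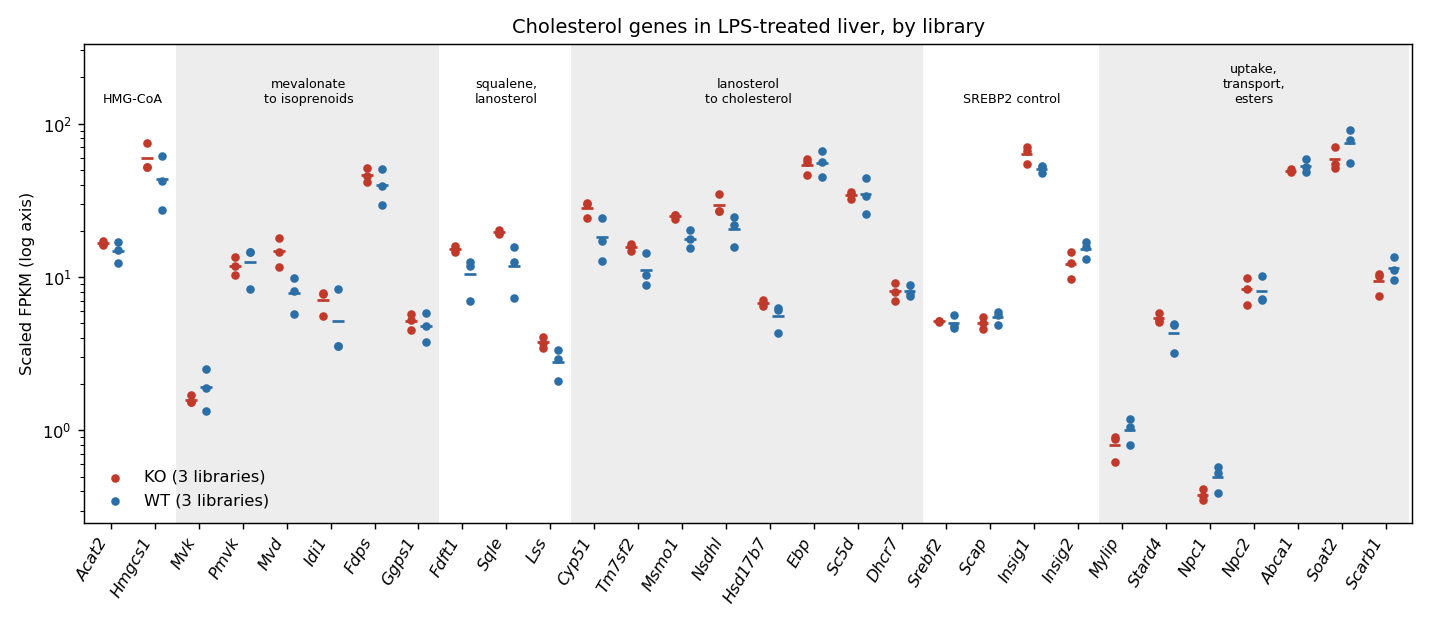
Scaled FPKM (log axis) of the 30 genes in pathway order, with KO libraries in red left of WT libraries in blue; points are single libraries and bars are means of 3. The KO points of Sqle lie between 19.2 and 20.3, above the WT points, while Srebf2 lies near 5 in both genotypes.

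Levels differed widely along the pathway. Averaged over the 6 libraries, Soat2 was highest at 66.8 scaled FPKM, followed by Insig1 at 57.2 and Ebp at 54.7. Npc1 at 0.438 and Mylip at 0.904 were lowest, and these were the genes left out of the test. Mvk, at 1.75 scaled FPKM, was the lowest synthesis enzyme among the 30 genes. Whole reads recovered from the FPKM steps ran from 69 for Mylip in its shallowest library to 12951 for Hmgcs1 in its deepest, and 28 of the 30 genes had at least 100 reads in every library.

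The first steps, from acetyl-CoA to HMG-CoA, are catalysed by the thiolase Acat2 and the synthase Hmgcs1. Hmgcs1 averaged 59.5 ± 12.8 scaled FPKM in KO and 43.7 ± 16.98 in WT (SD, n = 3 each), which is 0.49 ± 0.28 on the log2 scale (SE; limma adjusted p = 0.480). Its groups overlapped, with 61.3 in WT replicate 2 above the lower KO libraries. Acat2 averaged 16.6 ± 0.580 in KO and 14.7 ± 2.27 in WT (SD, n = 3 each; log2 fold change 0.17, limma adjusted p = 0.639).

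Of the 6 enzymes that turn mevalonate into isoprenoid diphosphates, 4 had positive and 2 negative log2 fold changes, with a median of 0.17. Mvd, the decarboxylase that yields isopentenyl diphosphate, had 14.6, 17.95 and 11.6 scaled FPKM in KO replicates 1 to 3, against 8.12, 9.80 and 5.76 in WT replicates 1 to 3. The groups did not overlap, and the log2 fold change of 0.83 ± 0.20 (SE; unadjusted p = 0.00313, limma adjusted p = 0.111) was the highest of the 28. Idi1, the isomerase of isopentenyl diphosphate, had 7.76, 5.55 and 7.81 in KO, against 8.38, 3.57 and 3.53 in WT. WT replicate 1 was the highest Idi1 library and the other WT libraries were the lowest (log2 fold change 0.46 ± 0.27, limma adjusted p = 0.505). Fdps, the farnesyl diphosphate synthase, averaged 46.4 ± 4.83 in KO and 40.0 ± 10.7 in WT (log2 fold change 0.24). Ggps1, the geranylgeranyl diphosphate synthase, had a log2 fold change of 0.10. The kinases Mvk and Pmvk had values of -0.15 and -0.04, and the adjusted p of these 4 genes ran from 0.662 (Fdps) to 0.962 (Pmvk).

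The 3 enzymes from farnesyl diphosphate to lanosterol had a median log2 fold change of 0.54 (0.31 without WT replicate 3). All 3 were higher in KO with an unadjusted p under 0.05 and no overlap, against 7.18% and 10.7% of all tested genes. Sqle, the squalene epoxidase and a rate-controlling enzyme of the late pathway, had 19.3, 19.2 and 20.3 scaled FPKM in KO, against 15.8, 12.6 and 7.27 in WT. Its KO libraries were nearly equal and its WT libraries spread about their mean of 11.9 ± 4.30 (SD, n = 3; log2 fold change 0.74 ± 0.23, limma adjusted p = 0.201). Fdft1, the squalene synthase, had 15.3, 14.5 and 15.8 in KO, against 12.5, 11.7 and 7.02 in WT. Its log2 fold change was 0.54 ± 0.19 (limma adjusted p = 0.268), with WT replicate 3 well below the other WT libraries. Lss, the lanosterol synthase, had 3.45, 3.71 and 4.08 in KO, against 3.34, 2.93 and 2.09 in WT. KO replicate 1 exceeded WT replicate 1 only narrowly for Lss (log2 fold change 0.34 ± 0.14, limma adjusted p = 0.345).

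**Figure D2:**
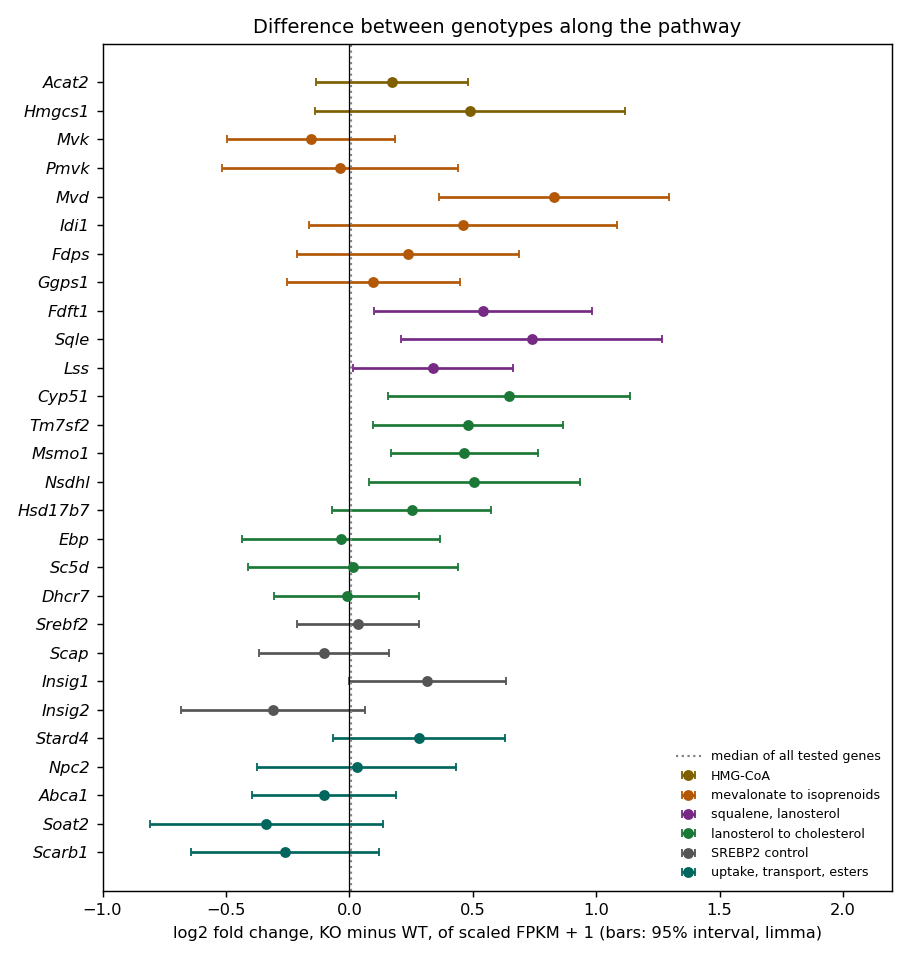
Log2 fold change (KO minus WT, scaled FPKM + 1) of the 28 tested genes in pathway order; points are limma estimates, bars their 95% intervals, and the dotted line is the median of all tested genes. The intervals of Mvd and of the run from Fdft1 to Nsdhl lie above 0 before adjustment, while those from Hsd17b7 onward include 0.

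Of the 8 enzymes from lanosterol to cholesterol, 6 had positive and 2 negative log2 fold changes. The median log2 fold change was 0.36 (0.22 without WT replicate 3), with 4 genes under an unadjusted p of 0.05 and 5 without overlap. Over all tested genes, 7.18% were higher in KO at that p and 10.7% were higher without overlap. Cyp51, the lanosterol demethylase, had 30.2, 24.3 and 29.8 scaled FPKM in KO, against 24.3, 17.3 and 12.7 in WT. KO replicate 2 and WT replicate 1 almost met (24.33 and 24.27), and the log2 fold change was 0.65 ± 0.22 (SE; limma adjusted p = 0.229). Tm7sf2, a sterol reductase, had 16.3, 14.8 and 15.9 in KO, against 14.3, 10.2 and 8.81 in WT (log2 fold change 0.48 ± 0.17, limma adjusted p = 0.255). Msmo1, the methylsterol monooxygenase, had 25.5, 23.9 and 25.2 in KO, against 20.3, 17.6 and 15.5 in WT. The gap between groups was wider for Msmo1 than the range of its KO libraries, but narrower than the range of its WT libraries (log2 fold change 0.47 ± 0.13, unadjusted p = 0.00663, limma adjusted p = 0.156). Nsdhl, which removes the methyl groups with Msmo1, had 26.97, 34.8 and 26.8 in KO, against 21.9, 24.6 and 15.6 in WT (0.51 ± 0.19, limma adjusted p = 0.284). KO replicate 2 stood above the rest for Nsdhl. Hsd17b7, the ketosteroid reductase of this step, had 6.45, 6.74 and 7.05 in KO, against 6.30, 6.07 and 4.32 in WT, without overlap but with an interval from -0.07 to 0.57 (log2 fold change 0.25, limma adjusted p = 0.473).

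The enzymes of the last steps, Ebp, Sc5d and Dhcr7, differed little between the genotypes in their means. Dhcr7, the reductase that yields cholesterol, averaged 8.04 ± 1.09 scaled FPKM in KO and 8.09 ± 0.721 in WT (SD, n = 3 each). Its log2 fold change was -0.01, and the 95% interval from -0.31 to 0.28 bounds the difference that these libraries allow. Ebp, the sterol isomerase, averaged 53.9 ± 6.64 in KO and 55.6 ± 10.95 in WT (log2 fold change -0.03, interval -0.43 to 0.37). Sc5d, the sterol desaturase, averaged 34.2 ± 1.90 in KO and 34.5 ± 9.05 in WT (0.01, interval -0.41 to 0.44). Their limma adjusted p ran from 0.962 (Ebp) to 0.984 (Sc5d), and the difference in fold change between early and late enzymes was not tested.

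The genes of SREBP2 control showed no common direction, with a median log2 fold change of -0.03. Srebf2 had 5.195, 5.12 and 5.16 scaled FPKM in KO, against 5.62, 4.65 and 4.79 in WT. The KO libraries sat inside the WT range, and the log2 fold change of 0.04 had an interval from -0.21 to 0.28 (limma adjusted p = 0.923). Scap had 4.60, 5.49 and 5.04 in KO, against 5.93, 5.65 and 4.90 in WT, with overlap (log2 fold change -0.10, interval -0.37 to 0.16, limma adjusted p = 0.763). Insig1, itself a target of SREBP2, had 69.9, 54.7 and 66.4 in KO, against 52.5, 51.9 and 47.8 in WT. Its KO libraries lay above its WT libraries, with a log2 fold change of 0.32 ± 0.14 (SE; limma adjusted p = 0.365). Insig2, its paralog, had 14.6, 9.74 and 12.3 in KO, against 16.9, 13.2 and 15.8 in WT. KO replicate 1 overlapped the WT range for Insig2, and the log2 fold change was -0.31 ± 0.16 (limma adjusted p = 0.450). The opposite signs of the paralogs were not tested against each other.

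Of the 7 genes of uptake, transport, efflux and esterification, 5 were tested, 2 with positive and 3 with negative log2 fold changes. Stard4, a soluble sterol carrier, had 5.204, 5.86 and 5.12 scaled FPKM in KO, against 4.95, 4.84 and 3.18 in WT. It was the gene of this group without overlap (log2 fold change 0.28 ± 0.15, limma adjusted p = 0.461). Soat2, the hepatocyte enzyme that esterifies cholesterol, averaged 58.6 ± 9.87 in KO and 75.1 ± 18.2 in WT (SD, n = 3 each; log2 fold change -0.34 ± 0.21, limma adjusted p = 0.526). Scarb1, the HDL receptor, averaged 9.36 ± 1.64 in KO and 11.4 ± 2.04 in WT (-0.26, limma adjusted p = 0.548). Both had overlapping groups. Abca1, which exports cholesterol to apolipoprotein A-I, averaged 49.3 ± 0.956 in KO and 53.2 ± 5.11 in WT (-0.10, limma adjusted p = 0.784). Npc2, which hands cholesterol out of the lysosome together with Npc1, differed by 0.03 on the log2 scale (limma adjusted p = 0.965). Below the filter, Npc1 averaged 0.379 ± 0.0307 in KO and 0.498 ± 0.0961 in WT. Mylip, a ubiquitin ligase that marks lipoprotein receptors for degradation, averaged 0.799 ± 0.156 in KO and 1.01 ± 0.193 in WT (SD, n = 3 each), and the groups of both genes overlapped.

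The WT libraries were spread more widely than the KO libraries for most of the synthesis genes. On the log2 scale the SD among WT libraries exceeded that among KO libraries for 24 of the 28 genes, against 58.9% of all tested genes. The median SD was 0.15 in KO and 0.29 in WT for the 28 genes, where all tested genes had medians of 0.14 in KO and 0.17 in WT. For Sqle the SD was 0.04 in KO and 0.52 in WT, and for Idi1 it was 0.25 in KO and 0.60 in WT. The 4 exceptions, with a larger SD in KO, were Dhcr7, Insig1, Insig2 and Scarb1.

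**Figure D3:**
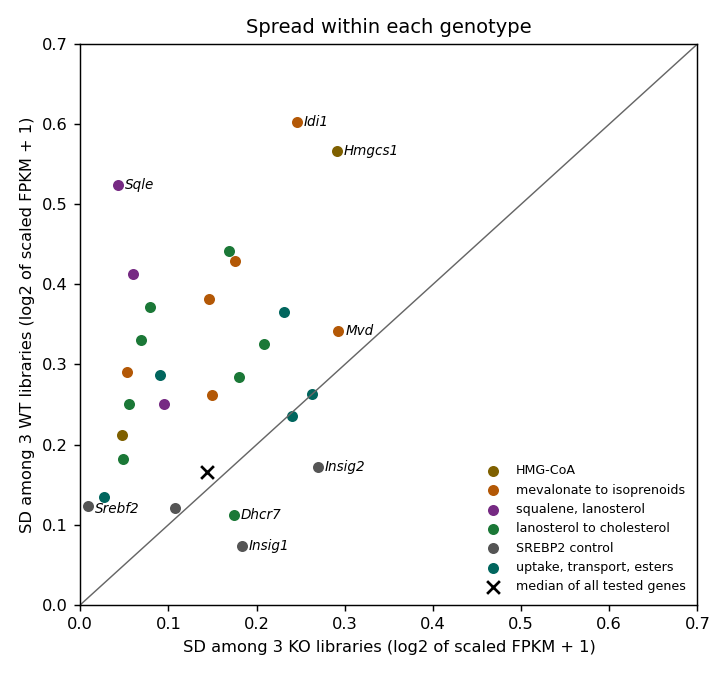
SD of log2(scaled FPKM + 1) among the 3 KO libraries (horizontal) and the 3 WT libraries (vertical) for the 28 tested genes, with the line of equal SD and a cross at the median of all tested genes. Points above the line (24 of 28) spread more among WT libraries.

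WT replicate 3 was the lowest of the 6 libraries for 20 of the 28 tested genes, whereas it was lowest for 13.3% of all tested genes. WT replicate 1 was the highest for 9 of the 28, against 20.8% of all tested genes. As the median deviation of the 28 genes from their own means, KO replicates 1 to 3 stood at 0.08, 0.11 and 0.09, and WT replicates 1 to 3 at 0.12, -0.05 and -0.40. The same measure over all tested genes lay between -0.02 and 0.03 in every library. The low level of WT replicate 3 was deepest for the squalene and lanosterol enzymes (-0.74) and the HMG-CoA enzymes (-0.57), and slight for SREBP2 control (-0.08) and the transport group (-0.075). WT replicate 3 also had the fewest reads recovered, 26010585 of a range up to 44141095. Its hepatocyte markers (Alb, Ttr, Apoa1, Fgb, Cps1 and Hnf4a) summed to 22070 scaled FPKM, against 26340 and 29310 in the other WT libraries and 20090 to 25020 in KO. Alb weighs most in this sum, with 10330 in WT replicate 3 against 15950 and 14060 in WT replicates 1 and 2. Ttr and Cps1 were also lowest of the WT libraries there, while Apoa1, Fgb and Hnf4a lay between the other WT libraries. The part of read depth and of these markers in the result was not tested.

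**Figure D4:**
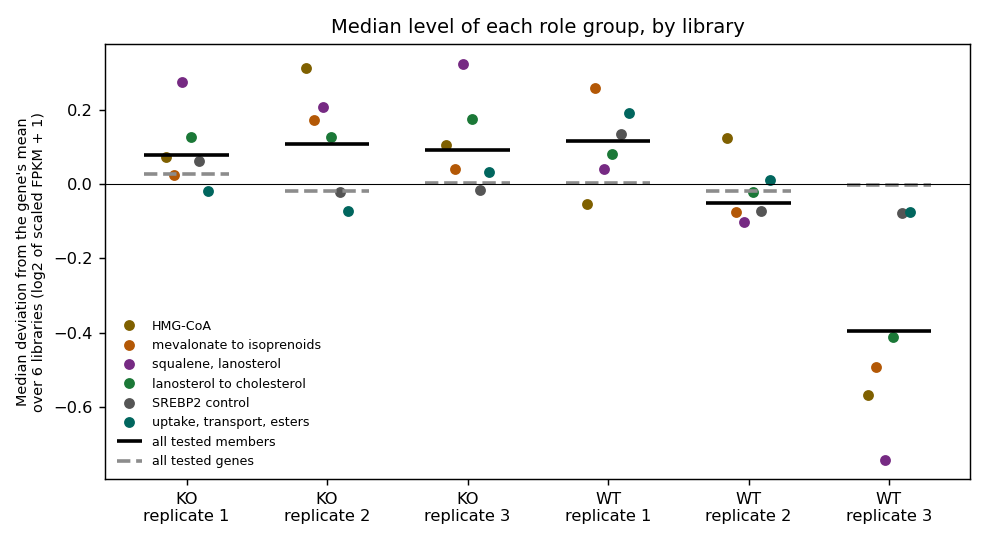
Median deviation from each gene's mean over the 6 libraries, on the log2(scaled FPKM + 1) scale, with KO libraries left of WT libraries; points are the 6 role groups, black bars all 28 tested genes and dashed bars all tested genes. WT replicate 3 stands at -0.40, and the other libraries lie between -0.05 and 0.12.

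The size of the difference depended on which libraries were kept. Without WT replicate 3 the median log2 fold change of the 28 genes was 0.09, and 4 genes (Mvd, Fdft1, Sqle and Msmo1) had an unadjusted p under 0.05 and were higher in KO, against 7.12% of all tested genes. The median was then 0.13 for the HMG-CoA enzymes, 0.31 for squalene and lanosterol and 0.22 for lanosterol to cholesterol. Sqle then had a log2 fold change of 0.45 and Mvd of 0.65 (limma adjusted p = 0.243 and 0.212). Without WT replicate 1 the median was 0.31, and 12 genes were higher in KO at an unadjusted p under 0.05, against 8.68% of all tested genes, with Idi1, Fdps, Hsd17b7 and Stard4 added to the 8. Soat2 was then lower at an unadjusted p of 0.0162 (log2 fold change -0.54, limma adjusted p = 0.193). Without KO replicate 1, 4 genes (Mvd, Sqle, Msmo1 and Nsdhl) were higher at an unadjusted p under 0.05, against 5.2% of all tested genes, and Insig2 was lower (log2 fold change -0.43, unadjusted p = 0.0348, limma adjusted p = 0.423). Without KO replicate 3 the count was 5, against 4.64%, and without KO replicate 2 or WT replicate 2 it was 7, against 7.13% and 4.86%. With any 1 library left out, Mvd, Sqle and Msmo1 stayed under an unadjusted p of 0.05, their log2 fold changes ran from 0.38 to 0.99, and 0 genes of the set passed the adjusted threshold.

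**Figure D5:**
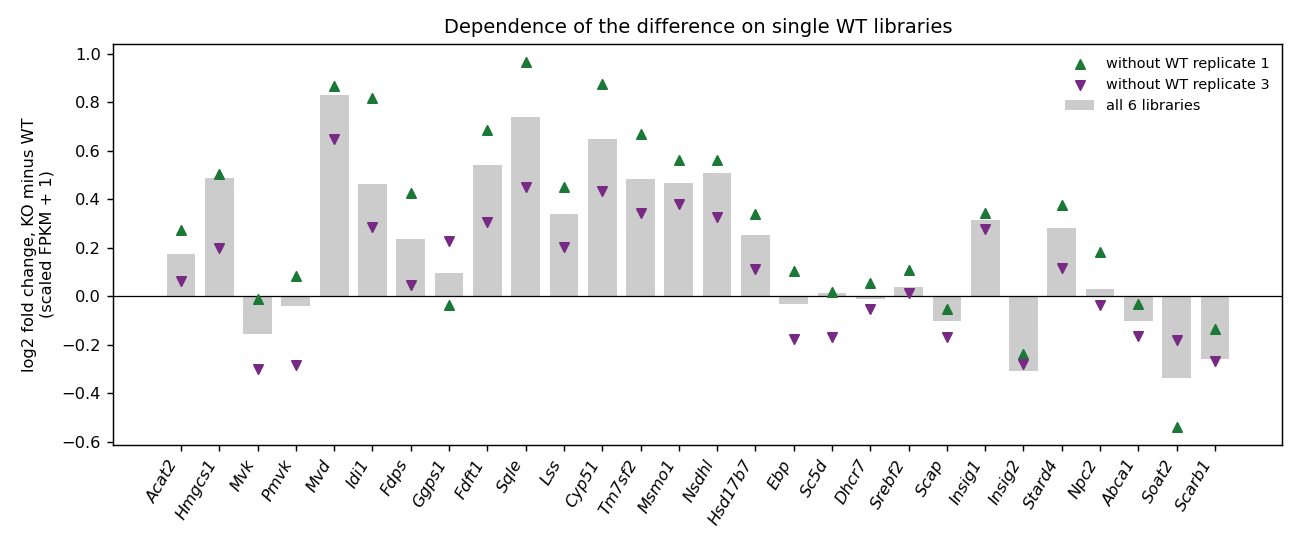
Log2 fold change (KO minus WT, scaled FPKM + 1) of the 28 tested genes from all 6 libraries (bars), without WT replicate 1 (upward triangles) and without WT replicate 3 (downward triangles). For Sqle the bar stands at 0.74, the upward triangle at 0.96 and the downward one at 0.45.

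In the deposited FPKM, with no scaling between libraries, 15 of the 28 genes rose in KO at a limma adjusted p under 0.05 and 0 fell. The same call was made for 28.7% of all tested genes (2648 higher, 55 lower), whose median log2 fold change was 0.45 before scaling. The 15 were Acat2, Hmgcs1, Mvd, Idi1, Fdps, Fdft1, Sqle, Lss, Cyp51, Tm7sf2, Msmo1, Nsdhl, Hsd17b7, Insig1 and Stard4. Their deposited log2 fold changes ran from 0.70 (Acat2) to 1.34 (Mvd). Srebf2, at 0.51 (limma adjusted p = 0.0847), and Soat2, at 0.22 (0.404), did not pass in the deposited values either.

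Other genes of sterol metabolism, from lists chosen by function, did not pass after scaling. Of 13 tested genes of sterol control, 2 were higher and 1 lower at an unadjusted p under 0.05, and the median was 0.02. Over all tested genes the shares higher and lower were 7.18% and 6.65%. Erlin1, an endoplasmic reticulum protein that restrains SREBP activation, averaged 3.72 ± 0.339 scaled FPKM in KO and 2.39 ± 0.375 in WT (SD, n = 3 each; log2 fold change 0.48, limma adjusted p = 0.119). Trib1, a pseudokinase linked to blood lipids, averaged 32.0 ± 8.14 in KO and 19.3 ± 5.29 in WT (0.71, limma adjusted p = 0.239). Among 16 tested genes of efflux, trafficking and ester turnover, 4 were higher and 0 lower at an unadjusted p under 0.05. The shares of all tested genes were 7.18% and 6.65%, and the median of this list was -0.05. Ces1g, a carboxylesterase, averaged 35.1 ± 12.8 in KO and 12.8 ± 4.94 in WT (1.39, limma adjusted p = 0.111), and it has close paralogs whose reads may be shared. Osbpl2, an oxysterol-binding protein, differed by 0.34 on the log2 scale (limma adjusted p = 0.212). Of 5 tested genes of lipoprotein uptake, 2 were positive and 3 negative. At an unadjusted p under 0.05, 1 was higher and 0 were lower in KO, against 7.18% and 6.65% of all tested genes. The gene that was higher is not reported here. The 3 negative ones included Lrp1, an endocytic receptor, which averaged 18.8 ± 2.69 in KO and 23.4 ± 2.07 in WT (-0.31, limma adjusted p = 0.377).

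The branches that leave the pathway at isoprenoid diphosphates had a median log2 fold change of 0.07 over 11 tested genes, with 6 positive and 5 negative. Dhdds, a subunit of the enzyme that makes dolichol precursors for protein glycosylation, averaged 12.7 ± 0.875 scaled FPKM in KO and 8.31 ± 1.32 in WT (SD, n = 3 each; 0.56, limma adjusted p = 0.1001). Rce1, the protease that trims prenylated proteins, averaged 14.2 ± 2.147 in KO and 27.3 ± 6.86 in WT (-0.88, limma adjusted p = 0.0769). Neither passed, and Dhdds and Rce1 were the genes of lowest p in this list.

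Of the markers of liver cell types, 0 genes passed after scaling, and those of hepatocytes summed highest. Summed Kupffer cell markers (8 genes) ranged from 30.9 to 49.8 scaled FPKM in KO and from 32.1 to 54.4 in WT. At an unadjusted p under 0.05, 3 of 6 tested were lower in KO, against 6.65% of all tested genes. They were Timd4, Vsig4 and Cd5l (log2 fold changes -0.58, -0.55 and -0.54, limma adjusted p = 0.0589, 0.198 and 0.221). The other tested ones were Marco (0.17), Clec4f (0.04) and C1qa (-0.02), with limma adjusted p from 0.873 (Marco) to 0.977 (C1qa). Neutrophil markers (7 genes, Ly6g under 1 in every library) ranged from 119 to 127 in KO and from 111 to 168 in WT. Sinusoidal endothelial markers (7 genes) ranged from 18.2 to 23.5 in KO and from 19.3 to 28.5 in WT, with Kdr under 1. Of 5 tested, 1 was lower in KO at an unadjusted p under 0.05, against 6.65% of all tested genes. It was Stab2 (-0.66, limma adjusted p = 0.0870). The others were Clec4g (-0.32), Lyve1 (-0.21), Fcgr2b (-0.02) and Stab1 (0.02), with limma adjusted p from 0.600 (Clec4g) to 0.978 (Stab1). Those of stellate cells (7 genes, Des and Reln under 1) ranged from 31.9 to 33.4 in KO and from 31.0 to 40.5 in WT. Cholangiocyte markers (6 genes) ranged from 39.7 to 75.3 in KO and from 41.2 to 62.1 in WT, with Krt19, Krt7 and Cldn7 under 1 in every library. The tested ones were Epcam, higher in KO (0.35, limma adjusted p = 0.175), Spp1 (0.29, limma adjusted p = 0.696) and Sox9 (-0.53, limma adjusted p = 0.408). Erythroid markers (4 genes) ranged from 206 to 328 in KO and from 133 to 314 in WT. Of these 4, 1 was higher in KO at an unadjusted p under 0.05, against 7.18% of all tested genes. It was Hbb-bt (0.76, limma adjusted p = 0.297), and the others were Hba-a1 (0.38), Alas2 (0.33) and Hba-a2 (0.27). The 7 lymphocyte markers stayed under 1 in every library. Their part in the results above was not tested.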

How the data were processed

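RNA sequencing was available for 6 mouse liver libraries, 3 KO and 3 WT. Reads were aligned with HISAT2 2.0.5, per the submitters' processing notes, which list both mm39 and hg38. For fragment counting, tool and strand setting were not given in the sources used here. Per the labels' protocols, total liver RNA was used, but a description field of all 6 samples names 10x Genomics, a single-cell platform, and this conflict was not settled. The table has 1 column per library and was analysed as bulk RNA. The deposited FPKM values were made by the authors. Promoter sequences are on another build (GRCm38.p6) and were joined by symbol only. The relative denominators of the libraries were read from the FPKM steps, and whole reads were recovered for 19613 of 19613 rows to within 0.0001 reads, up to a factor common to a gene, giving 26010585 to 44141095 reads per library. Counting error is largest for genes with few reads.

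Values were divided by median-of-ratios factors (0.738 to 1.40) and genes with at least 1 FPKM in at least 3 libraries (9218) were tested with limma 3.58.1 (R 4.3.3; eBayes with trend, two-sided) on log2(scaled FPKM + 1), Benjamini-Hochberg adjusted. Changes of low genes are understated on this scale. The model was run on simulated data with the same dispersion for all genes. The simulated fold changes were larger than those of the members, so power for this set was not measured. The members, lists and tests were chosen with earlier results of these data known. Full values were given to members with an unadjusted p under 0.05 or no overlap and to the SREBP2 control genes. In the other pathway lists the 2 genes of lowest p were named, apart from any not reported here. The labels do not say that replicate numbers pair the libraries, and the main fit used no block for them. The targeted gene and some genes of the pathway are not reported here. With 3 libraries against 3, an exact permutation test cannot go below p = 0.1 and was not used.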

Additional observations from a re-analysis of the deposited data

How the results depend on the processing

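The 28 tested genes gave 558 values under the alternatives, of which 507 kept their direction and their side of the threshold, and 15 genes never reversed. Values without one library ran, for all genes called, from 21 to 125 (104 with all 6), and for members called stayed at 0. All genes called numbered 2703 in the deposited values, 31 without a filter, 64 at a mean of at least 5 FPKM, 436 with arrayWeights, 290 with the replicate block and 218 at an adjusted p under 0.1. Members called numbered 15 in the deposited values, 4 with arrayWeights (Sqle, Cyp51, Tm7sf2 and Msmo1) and 1 with the replicate block (Mvd, limma adjusted p = 0.00913). Same-numbered libraries had correlations of their deviations of 0.33, 0.47 and 0.02, and KO replicate 3 correlated best with WT replicate 1 (0.36). These values do not settle whether the numbers pair libraries. The main fit used no block because nothing in the labels says that they do. In the deposited values the median log2 fold change was 0.72 over the members, and by role 0.87 for the HMG-CoA enzymes, 0.67 for mevalonate to isoprenoids, 1.06 for squalene and lanosterol, 0.87 for lanosterol to cholesterol, 0.44 for SREBP2 control (also positive with TPM, 0.04, and without WT replicate 1, 0.03) and 0.45 for uptake and transport.

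Signs reversed in the deposited values for Mvk (0.21), Pmvk (0.48), Ebp (0.52), Dhcr7 (0.49), Scap (0.37), Insig2 (0.21), Abca1 (0.45), Soat2 (0.22) and Scarb1 (0.25), as that shift of all genes implies. They also reversed with quantile normalization for Ebp (0.071), with TPM for Pmvk (0.047), Ebp (0.0549) and Dhcr7 (0.0714), and with arrayWeights for Pmvk (0.0058), Ggps1 (-0.0585), Ebp (0.0871) and Dhcr7 (0.11). With single libraries left out, values straddled 0 for Pmvk (-0.28 to 0.0887), Ggps1 (-0.0341 to 0.23), Ebp (-0.18 to 0.11), Sc5d (-0.17 to 0.20), Dhcr7 (-0.10 to 0.0781), Srebf2 (-0.0085 to 0.11) and Npc2 (-0.0904 to 0.18). Apart from the scaling, the causes were not tested. Factors taken over the tested genes only, an alternative chosen after seeing the data, gave 99 genes called and 0 members, and limma-voom on recovered reads 114 and 0. Depth limits the lowest genes, with 69 to 140 reads per library for Mylip and 148 to 224 for Npc1.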

Other observations

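Fatty acid synthesis genes, which are driven mainly by SREBP1c rather than SREBP2, had a different balance of signs in the same libraries. Of 14 tested genes, 13 were negative and 1 was positive on the scaled log2 scale, with a median of -0.36, against 0.21 for the cholesterol genes. None passed an adjusted p of 0.05 in limma. At an unadjusted p under 0.05, 2 were lower in KO, against 6.65% of all tested genes. Fasn, the fatty acid synthase, averaged 27.7 ± 9.98 scaled FPKM in KO and 50.7 ± 10.9 in WT (SD, n = 3 each; log2 fold change -0.88, limma adjusted p = 0.152). Thrsp, a lipogenic cofactor, averaged 169 ± 24.3 in KO and 246 ± 21.8 in WT (-0.55, limma adjusted p = 0.174). Srebf1, which codes for SREBP1 and was named after its values were seen, averaged 5.42 ± 0.539 in KO and 7.26 ± 1.37 in WT (-0.35, unadjusted p = 0.0362, limma adjusted p = 0.323), beside 5.16 ± 0.0366 in KO and 5.02 ± 0.526 in WT for Srebf2. The difference between the lists was not tested.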
